A study of Homo sapiens with 2 samples.

Results

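TXNIP, the other alpha-arrestin genes and the glucose-sensing transcription factors that act on them were followed in U87 cells, an established human glioblastoma line, after 72 h with CCA-1.1 or with DMSO. The 9 genes were chosen by family after the differences of TXNIP and ARRDC4 between these libraries had been seen, so the measured values that chose them are those described below. They are the 6 alpha-arrestin genes TXNIP, ARRDC1, ARRDC2, ARRDC3, ARRDC4 and ARRDC5 and the 3 transcription factor genes MLX, MLXIP and MLXIPL, out of 41582 gene symbols measured. The compound CCA-1.1 derives from curcumin by way of PGV-1, from which it differs by carrying an alcohol where PGV-1 has its ketone. The control cells received its solvent DMSO. The cells of both groups were labelled wild type and were grown in RPMI medium with fetal bovine serum, and the concentration of CCA-1.1 in the sequenced culture is not given in the sources used here. Each condition has 1 library, so differences have no replicate check and are given without p-values. Values are TPM, which corrects for transcript length and for the library total and can be compared between genes, but does not show how many reads stand behind a value.

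Alpha-arrestins are adaptor proteins that bring ubiquitin ligases of the NEDD4 family to membrane proteins. TXNIP also binds thioredoxin and inhibits it, and it lowers glucose uptake by promoting internalization of glucose transporters. MLXIP, better known as MondoA, and MLXIPL, known as ChREBP, bind DNA as partners of MLX at carbohydrate response elements (ChoREs) when glucose-6-phosphate is plentiful, and TXNIP and ARRDC4 are their best-known targets. Because TXNIP restrains glucose uptake in turn, the genes form a feedback loop.

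The sequences upstream of TXNIP and ARRDC4 are shown because these were the genes of the family with the large differences described below. Start-site windows of 300 bases, 250 upstream and 50 downstream, were taken from RefSeq (GRCh38.p14). They matched 8 of the 9 genes, with 11 windows in all, and ARRDC5 was not matched. The only MLXIPL window surrounds a start site 23385 bases from the start of that gene, so the bases at the MLXIPL gene start were not searched. The motifs searched on either strand were a ChoRE-like element, in which a core CACGNG and a core CNCGNG are separated by 5 bases, the E-box CACGTG and the CCAAT box CCAAT. The stretches below run from base -250 to base -1, where 1 is the start site, and capitals mark matches to these motifs. TXNIP lies on the minus strand at chr1:145996580-145996829 and ARRDC4 on the plus strand at chr15:97960453-97960702.
TXNIP: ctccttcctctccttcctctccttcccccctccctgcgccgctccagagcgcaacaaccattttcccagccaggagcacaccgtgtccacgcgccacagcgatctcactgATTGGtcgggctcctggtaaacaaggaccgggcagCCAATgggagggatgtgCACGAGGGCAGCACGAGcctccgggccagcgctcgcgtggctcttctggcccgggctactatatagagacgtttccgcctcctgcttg
ARRDC4: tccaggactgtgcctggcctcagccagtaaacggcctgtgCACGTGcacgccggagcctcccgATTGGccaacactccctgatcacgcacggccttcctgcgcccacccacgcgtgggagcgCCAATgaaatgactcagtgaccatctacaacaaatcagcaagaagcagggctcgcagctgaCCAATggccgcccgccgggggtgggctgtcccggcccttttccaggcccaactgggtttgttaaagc

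In the TXNIP window the ChoRE-like element covers bases -88 to -72, and CCAAT boxes lie upstream of it at bases -140 to -136 and -105 to -101. Such an element was found in 176 of all 35116 RefSeq windows, or 0.501%, and in 1 of the 11 windows of this family. TXNIP was already known as a target of the sensors, so its match is not an independent finding. The share of all windows does not measure how unlikely that match is. The ARRDC4 window held no ChoRE-like element. Other spacers, other forms of the element and bases outside the window were not searched, so a ChoRE of ARRDC4 could be missed. The ARRDC4 window held an E-box at bases -210 to -205 and 3 CCAAT boxes, the nearest to the start site at bases -67 to -63. An E-box was found in 7.26% of all windows, and in this family MLX, the partner of both sensors, also had one, at bases -50 to -45. At least 1 CCAAT box was found in 34.6% of all windows and in 7 of the 11 windows of the family, each of a different gene; at least 3, as in ARRDC4, were found in 3.26%. The window around the other TXNIP start site, 835 bases downstream, held none of these motifs. A match is a run of letters and was not tested for binding.

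The level of TXNIP, gene 10628 of the Entrez table, was 1681.5 TPM with DMSO and 132.98 TPM with CCA-1.1, and thus 12.6-fold lower with CCA-1.1. In the DMSO library TXNIP ranked 61st of the 41582 genes by level, among the most abundant messages of these cells, and in the CCA-1.1 library it ranked 1151st. The drop of 1548.52 TPM equals 0.155% of all TPM in the DMSO library, so it could shift the values of other genes only slightly. On the log2(TPM + 1) scale used for all differences here, CCA-1.1 against DMSO, TXNIP differed by -3.65. In bulk RNA, fewer cells that express a gene and less RNA per cell cannot be told apart.

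ARRDC4 (gene 91947), the other well-known target of the sensors, was lower with CCA-1.1 as well. It was at 89.99 TPM with DMSO and at 25.98 TPM with CCA-1.1, which is 3.46-fold lower and -1.75 as a log2(TPM + 1) difference. By level it stood next after TXNIP in the family under DMSO, and below MLX and ARRDC1 under CCA-1.1. Without replicates, which neighbours in this order differ beyond their spread cannot be given.

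The remaining alpha-arrestins differed much less. ARRDC1, which takes part in the budding of vesicles from the plasma membrane, was at 41.99 TPM with DMSO and 38.68 TPM with CCA-1.1, a log2(TPM + 1) difference of -0.12 that was near 0 with curated transcripts only (28.13 and 28.18 TPM). ARRDC2 was at 23.03 and 24.15 TPM, which gives 0.07. ARRDC3, which acts on the trafficking of adrenergic receptors, was at 12.80 TPM with DMSO and 9.86 TPM with CCA-1.1, a difference of -0.35. This was the third lowest difference of the family and the 465th lowest among the 12041 protein-coding genes that averaged 1 TPM or more. ARRDC5 was close to the lower end of the table, at 0.13 and 0.15 TPM, and was the only gene of the 9 under a mean of 1 TPM.

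**Figure D1:**
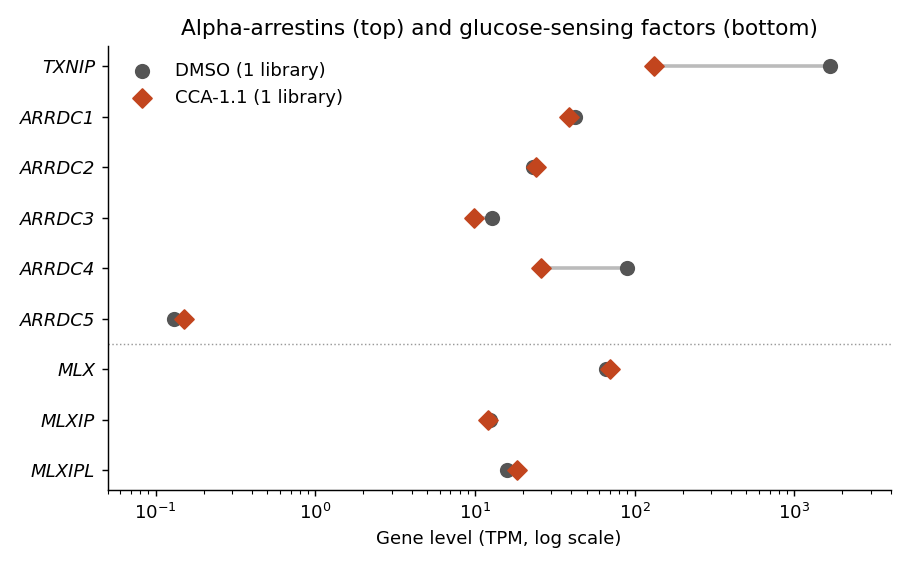
Level of each gene in TPM on a log scale, with a circle for the DMSO library and a diamond for the CCA-1.1 library, joined by a grey bar. TXNIP (1681.5 and 132.98 TPM) and ARRDC4 (89.99 and 25.98 TPM) have long bars, while the symbols of the other 7 genes lie close together.

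TXNIP made up most of the alpha-arrestin RNA of these cells. Its share of the summed TPM of the 6 alpha-arrestins was 90.9% with DMSO and 57.4% with CCA-1.1. The sum itself was 1849.44 TPM with DMSO and 231.8 TPM with CCA-1.1. Without TXNIP and ARRDC4 the sum of the other 4 was 77.95 TPM with DMSO and 72.84 TPM with CCA-1.1, so these 4 together differed by -0.10 on the log2(TPM + 1) scale. The share of ARRDC4 in the family was 4.87% with DMSO and 11.2% with CCA-1.1, since TXNIP had the larger decrease.

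The glucose-sensing factors themselves were at nearly the same levels in both libraries when all transcripts were summed. MLX, the common DNA-binding partner, was the most abundant of them, with 65.95 TPM under DMSO against 69.88 TPM under CCA-1.1, a log2(TPM + 1) difference of 0.08. MLXIP was at 12.35 and 12.05 TPM (-0.03), and MLXIPL was at 15.80 and 18.19 TPM (0.19). With curated transcripts only, MLXIPL was at 1.1 and 2.4 TPM, a difference of 0.70. MLX was thus 5.34 times the level of MLXIP with DMSO and 5.80 times with CCA-1.1. The 3 factors together stood at 94.1 TPM with DMSO and 100.12 TPM with CCA-1.1. Their RNA levels say nothing of where the proteins lie in the cell or of their binding to DNA, which is the step that glucose controls.

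Genes past 2-fold, a log2 difference beyond 1 in size, were counted, which is the fold criterion of the study. Of the 8 that averaged 1 TPM or more, 2 were lower by more than 2-fold with CCA-1.1, TXNIP and ARRDC4, and none was higher. Among all 12041 protein-coding genes at this level, 23 (0.191%) were lower and 18 (0.149%) were higher by more than 2-fold. As the 9 genes were selected on values of the same libraries, these counts are a description. Their median difference was -0.07, and 0.02 without TXNIP and ARRDC4, against a median of 0.02 over the 12041 genes, for which the 5th and 95th percentiles were -0.31 and 0.36. TXNIP had the lowest difference of all 12041 genes and ARRDC4 the fourth lowest. These places depend on the processing. With a pseudocount of 0.1 TPM in place of 1, TXNIP had the second lowest and ARRDC4 the 11th lowest difference, with 0.01 TPM TXNIP had the third lowest, and with curated transcripts only ARRDC4 had the 8th lowest of 11305, while TXNIP had the lowest with median-ratio scaling and with curated, coding or version-matched transcripts only.

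**Figure D2:**
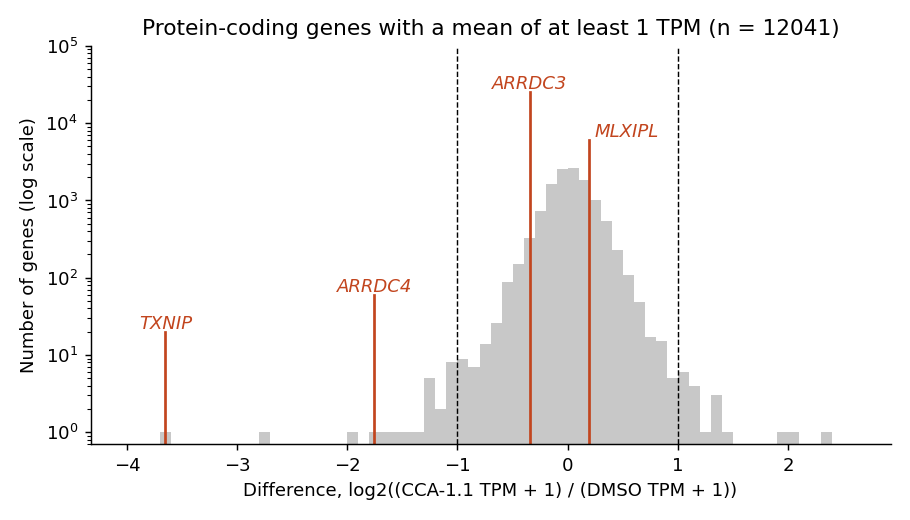
Histogram of log2(TPM + 1) differences, CCA-1.1 against DMSO, over 12041 protein-coding genes averaging 1 TPM or more; the y axis counts genes on a log scale, dashed lines mark 2-fold, and vertical lines place 4 genes of the family. TXNIP lies at -3.65 at the far left and ARRDC4 at -1.75, while ARRDC3 (-0.35, just below the 5th percentile of -0.31) and MLXIPL (0.19) lie inside the dashed lines.

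TXNIP was chosen with its difference known and had the lowest of all 12041 genes, so few genes could lie near it. No gene at a similar level had a difference near that of TXNIP. Of the 109 other protein-coding genes with a mean within 1.5-fold of the mean of TXNIP over both libraries, the nearest in difference was ADM, which encodes the vasodilator peptide adrenomedullin, at 713.58 TPM with DMSO and 499.12 TPM with CCA-1.1. Its difference of -0.51 was 3.14 log2 units away from that of TXNIP. SERPINE2 (-0.42) and TM4SF1 (-0.38) followed. With 1 library per condition, this likeness rests on 2 values per gene.

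The 9 genes have 52 transcripts in the table, of which 9 were at 0 in both libraries. Kallisto divides reads shared by several transcripts of a gene by estimation, so the value of a transcript is less certain than the sum for its gene. In TXNIP both transcripts were lower with CCA-1.1. NM_006472.6 was at 1649.24 TPM with DMSO and 131.94 TPM with CCA-1.1 (-3.63), and NM_001313972.2 was at 32.26 and 1.04 TPM (-4.03). NM_006472.6 held 98.1% of TXNIP under DMSO and 99.2% under CCA-1.1. ARRDC4 has a single listed transcript, NM_183376.3, to which no other ARRDC4 transcript could give or take reads.

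Among the other genes, single transcripts passed 2-fold while the sums did not. Of the 52 transcripts, 4 were lower and 2 were higher by more than 2-fold with CCA-1.1, against 1.07% and 1.17% of all 177816 transcripts. These counts depend on values near 0: with a pseudocount of 0.1 TPM 6 were lower and 9 higher, and with a minimum mean of 1 TPM per transcript 3 were lower and 0 higher. Besides the 2 TXNIP transcripts and that of ARRDC4, the lower ones included MLXIP XM_047428538.1, at 1.45 TPM with DMSO and listed at 0 with CCA-1.1. The higher ones were MLXIPL NM_032951.3 and XM_047420433.1, each listed at 0 with DMSO and at 1.36 and 1.11 TPM with CCA-1.1. Of the 6 genes at 1 TPM or more and under 2-fold, MLXIP and MLXIPL thus held such a transcript, and 16.8% of all protein-coding genes under 2-fold did.

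Of the 7 genes with several transcripts and a mean of 1 TPM or more, MLXIPL was the 1 gene whose leading transcript was not the same in both libraries. XM_011516278.2 led with DMSO (7.17 TPM, 45.4% of the gene) and was at 4.46 TPM (24.5%) with CCA-1.1, where XM_011516277.2 led at 5.39 TPM (29.6%), close to its 4.88 TPM with DMSO. Besides these and the pair listed at 0 with DMSO, its transcripts above 1 TPM in either library were XM_017012263.2 (1.64 and 1.77 TPM), NM_032952.3 (1.1 and 1.04 TPM), XM_011516279.2 (0.37 and 1.38 TPM) and XM_047420432.1 (0.56 and 1.14 TPM). Such a change of the leading transcript was seen in 12.8% of 10012 protein-coding genes held to the same limits. In the other genes the leader was the same. MLXIP was led by NM_014938.6, with 9.76 TPM under DMSO and 9.27 TPM under CCA-1.1. NM_198204.2 led MLX, at 46.04 and 47.49 TPM, followed by NM_198205.2 at 18.23 and 21.08 TPM and NM_170607.3 at 1.68 and 1.31 TPM. ARRDC1 was spread over 8 transcripts, of which NM_152285.4 (17.19 and 15.56 TPM) and NM_001317968.2 (10.94 and 12.62 TPM) were the highest. The other 6 were each under 4 TPM, from XM_047424069.1 (3.69 and 1.6 TPM), XM_006717321.5 (2.51 and 3.22 TPM), XM_005266119.2 (2.5 and 1.44 TPM) and XM_017015288.3 (1.95 and 0.72 TPM) to XM_006717320.5 (1.79 and 2.84 TPM) and XM_006717322.5 (1.42 and 0.68 TPM). On the log2(TPM + 1) scale none of the 8 was past 2-fold, although the plain TPM of XM_047424069.1, XM_017015288.3 and XM_006717322.5 was lower by more than that with CCA-1.1, since the added 1 TPM shrinks differences at such low levels. In ARRDC2, NM_001025604.3 was at 15.25 and 14.83 TPM and NM_015683.2 at 7.78 and 8.91 TPM.

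The lower value of ARRDC3 lay in its main transcript. NM_020801.4 was at 9.26 TPM with DMSO and 5.77 TPM with CCA-1.1 (-0.60), whereas NM_001329672.2 was at 2.28 and 2.13 TPM and the noncoding NR_138072.2 at 0.90 and 1.43 TPM. The share of NM_020801.4 in the gene was 72.3% with DMSO and 58.5% with CCA-1.1.

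**Figure D3:**
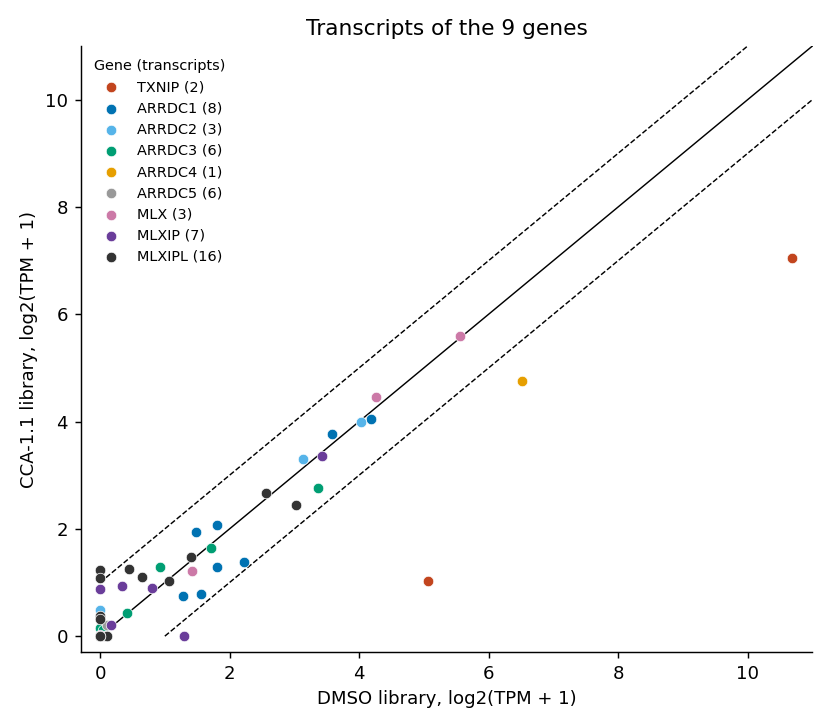
Level of the 52 transcripts under DMSO (x axis) and under CCA-1.1 (y axis), both in log2(TPM + 1), coloured by gene; the solid line marks equal levels and the dashed lines 2-fold. The 2 TXNIP transcripts and that of ARRDC4 lie far below the lower dashed line, and the transcripts of the other genes that pass 2-fold lie near 0.

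Genes that overlap one of the 9 on the chromosome could share reads with it. TXNIP (chromosome 1 of GRCh38.p14, 145992435 to 145996579), ARRDC4 (chromosome 15, 97960703 to 97973833), ARRDC2, MLXIP and MLXIPL overlap no other gene of the RefSeq table. ARRDC1 overlaps ARRDC1-AS1 by 29 bases, and ARRDC1-AS1 was at 24.84 TPM with DMSO and 23.82 TPM with CCA-1.1. ARRDC3 overlaps ARRDC3-AS1 by 2971 bases, including introns, and ARRDC3-AS1 was at 0.33 and 0.55 TPM. MLX overlaps PSMC3IP by 894 bases, with PSMC3IP at 10.72 and 9.14 TPM. ARRDC5 lies over UHRF1, at 0.85 and 0.71 TPM. Whether reads were counted by strand is not given in the sources used here.

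The genes around the loop were described by 7 lists with 78 genes, of which 64 had a mean of at least 1 TPM. None of the 64 was higher or lower by more than 2-fold, and the medians of the lists ran from -0.07 to 0.06, against 0.02 over all 12041 genes. The single differences ran from -0.60 to 0.57. Counts of list genes above and below 0 are given below as a description. Of all 12041 genes, 45.9% lay below ARRB2, a list gene at -0.00075.

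In the thioredoxin system, which TXNIP inhibits, 3 of 11 genes were above 0 and 8 below, with a median of -0.07. TXN, thioredoxin itself, is named here after its values were seen, as the binding partner of TXNIP. It was at 708.41 TPM with DMSO and 766.82 TPM with CCA-1.1. TXNIP RNA was therefore 2.37 times as abundant as TXN RNA in the DMSO library, and TXN was 5.77 times as abundant as TXNIP in the CCA-1.1 library. The largest differences of the list were those of TXNRD2, the mitochondrial thioredoxin reductase (3.57 and 5.14 TPM, 0.43), and of the peroxiredoxins PRDX2 (73.42 and 62.20 TPM, -0.24) and PRDX6 (161.09 and 140.57 TPM, -0.20).

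Of the other targets of MondoA or ChREBP, 11 of 18 had a mean of at least 1 TPM, 6 of them above 0 and 5 below, with a median of 0.01. KLF10, a transcription factor, was the lowest, at 35.87 TPM with DMSO and 23.39 TPM with CCA-1.1. Its difference of -0.60 was the 84th lowest of the 12041 genes. The lipogenic enzyme FASN was at 277.76 and 324.30 TPM (0.22), and PFKFB2, which makes the glycolytic activator fructose-2,6-bisphosphate, at 15.16 and 18.08 TPM (0.24). PKLR, the ChREBP target best known from liver and named after its values were seen, was at 0.10 and 0.19 TPM. The differences of TXNIP and ARRDC4 were thus not shared by the list as a whole.

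Glucose uptake and phosphorylation, the steps that feed the sensors, had 12 of 15 genes at 1 TPM or more and a median of 0.04. The glucose transporter genes SLC2A1 (70.54 and 81.02 TPM, 0.20) and SLC2A12 (4.36 and 5.03 TPM, 0.17) were slightly higher with CCA-1.1. SLC2A6 was lower, at 6.89 and 4.23 TPM (-0.59). SLC2A3, the most abundant transporter gene of the list and named after its values were seen, was at 195.67 and 202.21 TPM (0.05). The hexokinase genes HK1 (146.71 and 150.68 TPM) and HK2 (143.21 and 151.28 TPM), whose enzymes make glucose-6-phosphate, were at like levels in both libraries; they are named after their values were seen.

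In the MAX and MLX network, whose members compete for E-boxes, 9 of 10 genes averaged 1 TPM or more and the median was -0.01. MYC was the highest, at 21.06 TPM with DMSO and 31.64 TPM with CCA-1.1, a difference of 0.57 and the 137th highest of the 12041 genes. The MAX partners MXD4 (16.96 and 14.89 TPM, -0.18) and MXD1 (9.26 and 8.22 TPM, -0.15) followed in size.

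The ubiquitin ligases of the NEDD4 family, which alpha-arrestins recruit, differed little, with 9 of 9 genes at 1 TPM or more and a median of -0.03. Of the 9, 1 lay above 0 and 8 below, the lowest at -0.10. Of all 12041 genes, 45.9% lay below the -0.00075 of ARRB2, and most of these ligases were close to 0. ITCH, the ligase that targets TXNIP for degradation, was at 62.81 and 68.73 TPM (0.13), HECW1 at 6.88 and 6.33 TPM (-0.10) and SMURF2 at 12.34 and 11.62 TPM (-0.08). The other genes with an arrestin fold had a median of 0.03 over 6 of 8 genes, with the largest in size at ARRB1 (11.49 and 10.38 TPM, -0.13), VPS26A (0.06) and RGP1 (0.06). In the AMPK complex, the energy-sensing kinase that phosphorylates TXNIP, 6 of 7 genes averaged 1 TPM or more. These 6 lay above 0, from 0.02 to 0.30, with a median of 0.06. The median over all 12041 genes was itself above 0, at 0.02. The highest was the regulatory subunit gene PRKAB2 (11.96 and 14.96 TPM), before PRKAB1 (0.12) and PRKAA2 (0.07), the last at only 1.13 and 1.24 TPM.

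**Figure D4:**
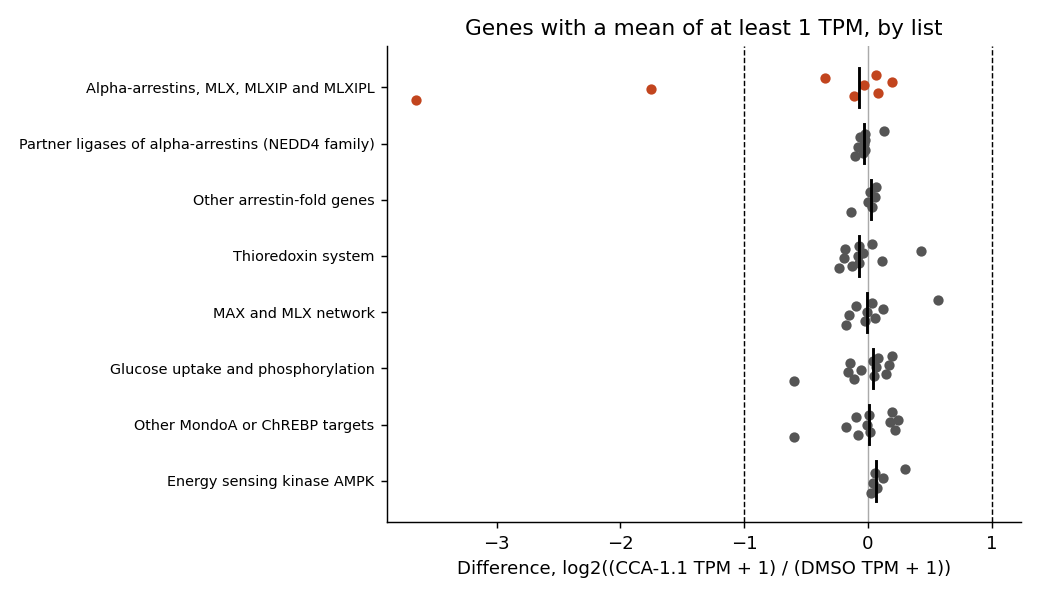
Differences of log2(TPM + 1), CCA-1.1 against DMSO, for genes averaging 1 TPM or more in 7 lists (grey points) and in the family described (8 of its 9 genes, top row); black bars are medians and dashed lines mark 2-fold. All 64 list genes lie between -0.60 and 0.57, and only TXNIP and ARRDC4 lie beyond 2-fold.

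Marker genes of cell types were read beside the cell line label. They mark classes of cells, so they cannot show which line was used. The mesenchymal glioblastoma markers VIM (3216.8 and 3106.33 TPM) and CD44 (607.39 and 472.58 TPM) were abundant, whereas NES of the same list was at 7.53 and 7.62 TPM. The 6 markers of this list summed to 20181.7 TPM with DMSO and 17167.7 TPM with CCA-1.1, most of it FN1 (11240.6 and 9087.74 TPM). The astrocyte markers GFAP, S100B and AQP4 were each under 1 TPM. The fourth astrocyte marker, ALDH1L1, was at 3.42 and 6.05 TPM (0.67) and made up most of the sum of the 4, which was 3.83 and 6.64 TPM. Sums were 6.86 and 8.98 TPM for 4 oligodendrocyte markers, 35.24 and 30.79 TPM for 3 neuronal ones and 3.93 and 3.23 TPM for 3 endothelial ones. The 4 immune markers summed to 494.3 and 397.16 TPM, nearly all of it CD68, which other cells also express. The leukocyte marker PTPRC and the epithelial markers EPCAM and CDH1 were each under 0.2 TPM in both libraries. The tenascin gene TNC (162.66 and 96.67 TPM, -0.74) was the marker with the largest difference, and the part of such shifts in the values of the family was not tested.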

How the data were processed

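RNA of U87 cells was sequenced after 72 h with DMSO or CCA-1.1, 1 library each. From enriched mRNA the authors made libraries for Illumina sequencing, inspected reads with FastQC 0.11.9 and MultiQC 1.1 (per the submitters' processing notes) and quantified transcripts with Kallisto on GRCh38.p14. The deposited values are TPM, given to 2 decimals; depth is unknown, so no interval for counting error is given.

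Of 177816 transcripts, 169966 were matched to 41582 symbols through RefSeq (GRCh38.p14), and TPM was summed per gene. Differences are log2((CCA-1.1 TPM + 1) / (DMSO TPM + 1)), which understates the change of low genes. The edgeR test of the study needs counts and was not run. The text names the 9 genes, their transcripts above 1 TPM, the 3 protein-coding genes nearest to TXNIP in difference within 1.5-fold of its mean and, from each pathway list, the 3 genes with the largest absolute difference at a mean of at least 1 TPM; marker genes of cell types were picked as examples after their values were seen. The members and lists were chosen with earlier results of these data known. Alternatives were pseudocounts of 0.1 and 0.01 TPM, median-ratio scaling, curated, coding or version-matched transcripts, and minimum means of 1 and 10 TPM. Calculations used Python 3.11.15, numpy 2.4.6, pandas 2.3.3 and matplotlib 3.10.9, and were tested on simulated data.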

Additional observations from a re-analysis of the deposited data

How the results depend on the processing

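No alternative changed which of the 9 genes were past 2-fold, and none turned the direction of TXNIP or ARRDC4. The small difference of ARRDC1 turned from -0.12 to 0.00247 with curated transcripts only, and the median of the MAX and MLX network from -0.01 to 0.01 with a minimum mean of 10 TPM. Many of the 62 recomputed differences of the 9 genes could not move. A minimum mean of 1 TPM does not alter a value, and the transcript filters often drop no transcript of a gene. Of the 62, 61 moved by less than the SD of all 12041 protein-coding genes (0.22). The exception was MLXIPL with curated transcripts only, at 0.70 (1.1 TPM with DMSO, 2.4 TPM with CCA-1.1), since most of its TPM lies in model transcripts. In plain TPM this is more than 2-fold, since the added 1 TPM shrinks differences at such low levels. All 21 recomputed list medians moved by less than that SD. Of 14 shares of leading transcripts, 4 moved by 1 percentage point or more with curated transcripts only, those of ARRDC1 and MLXIP. The others belong to TXNIP, ARRDC2, ARRDC3, ARRDC4 and MLX, which have no model transcripts, so this setting could not change them. ARRDC5 and MLXIPL are led by model transcripts and are not among the 14.

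Counts of transcripts depended on values near 0. With a pseudocount of 0.1 TPM, 9 transcripts of the 9 genes were higher and 6 lower by more than 2-fold. With 0.01 TPM, 11 were higher and 9 lower. With a minimum mean of 1 TPM per transcript, 0 were higher and 3 lower. Over all protein-coding genes, a pseudocount of 0.1 TPM gave 38 lower and 47 higher, and a minimum mean of 10 TPM gave 12 lower and 5 higher. No library could be left out, and no paired analysis was possible because each condition was sequenced once. Read depth, which TPM does not keep, limits every value near 0.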
